A study of Mus musculus with 6 samples.

Results

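The genes described here encode the cell-surface receptors by which heart cells hold on to the extracellular matrix, namely integrins, discoidin domain receptors, dystroglycan, syndecans and glypicans, together with 4 cytoplasmic proteins that tie integrins to the actin cytoskeleton. They were chosen by name as 37 genes of this kind, and all 37 were found among the 14798 genes of the deposited table. RNA was sequenced from the scar of the left ventricle 6 weeks after myocardial infarction, which was set by ligation in mice 10 weeks old; the labels give the mice as 14 to 16 weeks old at collection. The control group held 3 libraries of genotype Sox9 fl/fl, with floxed alleles and no Cre named, and the deletion group held 3 libraries of genotype Sox9 fl/perCre, in which Sox9, a transcription factor gene of cartilage and matrix-producing cells, was to be deleted in fibroblasts. All mice of both groups carried floxed Sox9 and an infarct, and no group without infarction was analysed here. The study's description says that this Cre acts only in fibroblasts, so the other cells of the scar keep Sox9, and the labels do not say whether each library is 1 animal or a pool. Separate animals behind the replicates are not stated either, and the p-values therefore measure only how far these samples spread, which may be partly technical.

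Integrins are pairs of an alpha and a beta chain. The alpha chain largely sets which ligand is bound: collagens, laminins, proteins carrying the arginine-glycine-aspartate (RGD) motif such as fibronectin and vitronectin, or counter-receptors on other cells. Inside the cell, talin and vinculin connect the beta chain to actin, while ILK and paxillin recruit further adaptors. Syndecans and glypicans carry heparan sulphate chains that bind matrix proteins and growth factors alongside integrins. In the infarcted heart these receptors are borne by different cells: the collagen receptor alpha 11 mainly by fibroblasts, alpha 7 and dystroglycan by cardiomyocytes, and the beta 2 integrins by leukocytes. In bulk tissue, fewer cells of a type and less RNA per cell cannot be told apart.

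Total counts were 18538171 to 55523974 in the control libraries and 22666770 to 48515962 in the deletion libraries. Levels are given below as CPM, the counts scaled to one common total per library after adjustment by trimmed mean of M values (TMM). Sox9 itself was at 71.1, 75.8 and 67.7 CPM in control replicates 1 to 3 and at 42.1, 51.7 and 55.8 CPM in deletion replicates 1 to 3, so the labels and the targeted gene went the same way, with a log2 fold change of -0.52 ± 0.15 (SE; edgeR adjusted p = 0.564). Deletion replicate 1 stood apart from the other libraries. Its 12 cardiomyocyte markers, led by Myh6 and Myh7, summed to 166440 CPM in that library, against 53510 to 85173 CPM in controls and 81210 and 87388 CPM in the other deletion libraries, and over all libraries the 12 had positive log2 fold changes. Its 10 fibroblast markers, led by Dcn and Gsn, summed to 6286 CPM, against 12500 to 15133 CPM in controls and 12343 and 12374 CPM in the other deletion libraries, and over all libraries the 10 had negative ones. The 15 leukocyte markers, led by Laptm5 and Csf1r, summed to 429 to 1094 CPM in controls, highest in replicate 3. In deletion scars they summed to 240.3 to 588 CPM, lowest in replicate 1. Over all libraries 11 of the 15 had negative and 4 had positive log2 fold changes. No marker of these lists was at 0 in all libraries, none passed edgeR's test, and their part in the results below was not tested. Control replicate 3 was the only library with Xist at 812 CPM, the other 5 being at most at 7.61 CPM, and with Ddx3y at 0.596 CPM against 122 to 146 CPM elsewhere, the pattern of a female among libraries with the pattern of males, and thus from another animal than the other controls; the labels give no sex. Replicates 2 and 3 of both groups held only even counts, whereas 49.9% and 49.3% of the counts in the replicate 1 libraries were even; the labels name no batch, and a fit with a term for this split is given where it moved a value.

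Most matrix receptors had lower mean levels in the deletion scars, and no single gene passed the test. Of the 37 genes, 31 had negative and 6 had positive log2 fold changes, against 7735 negative and 7036 positive among all 14771 genes tested. The median was -0.42, against -0.02 over all genes tested. None of the 37 was called at an edgeR adjusted p below 0.05, as for 0% of all genes; the 37 adjusted p-values lay between 0.564 and 0.864. At an unadjusted p below 0.05, 2 were higher (Itgb6 and Gpc1), against 5.3% of all genes, and 1 was lower (Sdc3), against 3.04% of all genes. The 3 deletion libraries lay wholly above the 3 controls for 4 genes (Dag1, Itgb6, Itga9 and Gpc1), against 8.87% of all genes, and wholly below them for 9 genes (Itga11, Ddr1, Itga3, Itgb1, Sdc3, Sdc4, Tln1, Vcl and Ilk), against 8.59% of all genes. These 4 and 9 genes are 10.8% and 24.3% of the 37. Deletion replicate 1 held the lowest of the 6 values for 25 of the 37 genes.

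**Figure D1:**
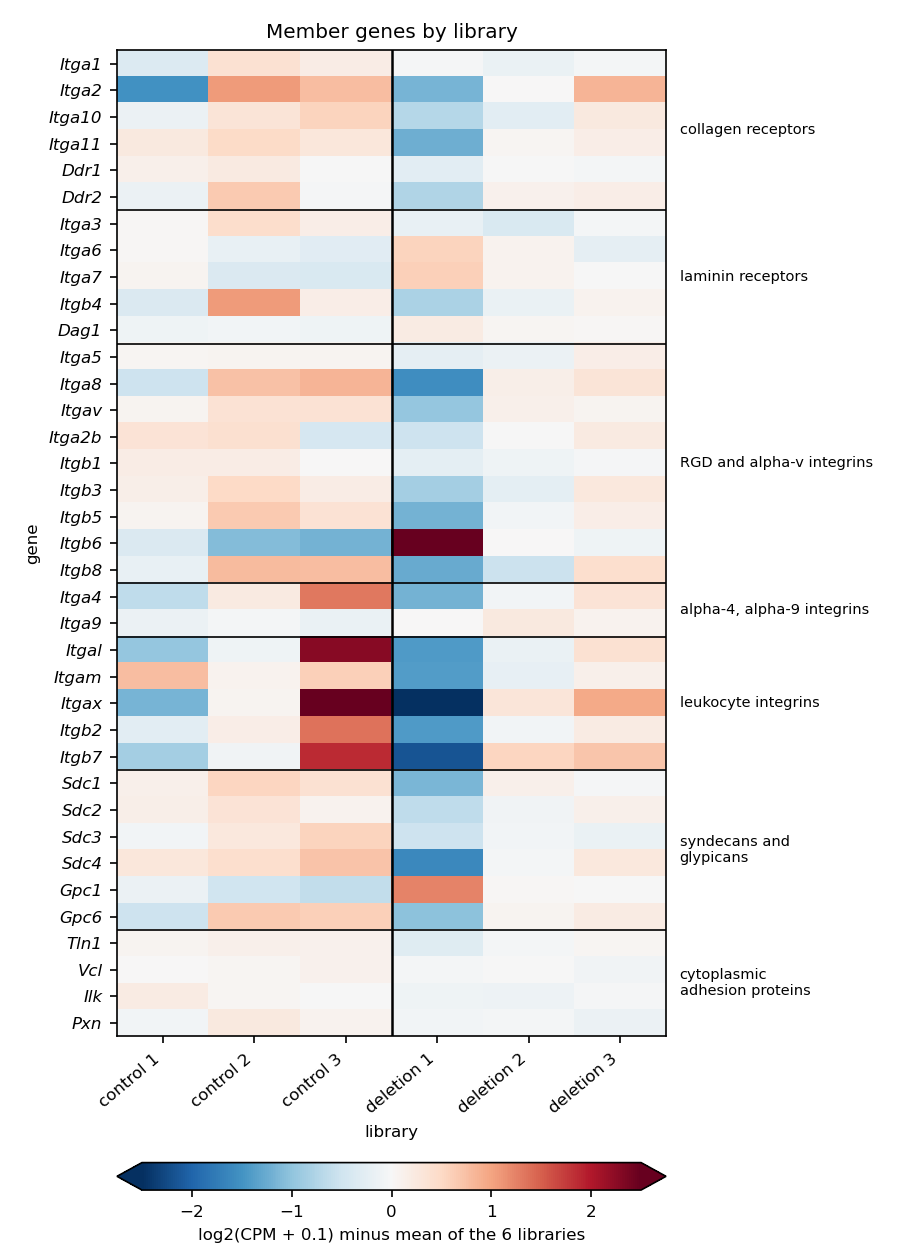
Heat map of the 37 genes (vertical axis, grouped by role) in the 6 libraries (horizontal axis); the colour is log2(CPM + 0.1) minus the mean of the 6 libraries, and the scale stops at its ends. Deletion replicate 1 is the lowest column for 25 of the 37 genes, with Itgb6 and Gpc1 among the exceptions, and control replicate 3 is the highest for Itgal, Itgax, Itgb2 and Itgb7.

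The direction of the median was the same in both sets of replicates. Between the replicate 1 libraries alone the median log2 fold change of the 37 genes was -0.46, and between replicates 2 and 3 of each group it was -0.34. The 2 estimates had the same sign for 33 of 37 genes, or 89.2%, against 68.5% of 14762 genes. Leaving out deletion replicate 1 brought the median over all libraries to -0.21, leaving out control replicate 2 to -0.27, and leaving out both deletion replicate 1 and control replicate 3 to -0.14. For 26 of the 37 genes the log2 fold change was more than 1.5 times smaller in size without deletion replicate 1. With the term separating replicate 1 from replicates 2 and 3, 3 genes were higher at an unadjusted p below 0.05, against 13.8% of all genes, and 12 were lower, against 8.87% of all genes; none was called, and the lowest edgeR adjusted p was 0.0651, for Gpc6. In the same fit it was 0.0690 for Itga8, 0.0707 for Itga7, 0.0781 for Gpc1, 0.0802 for Sdc3 and 0.0952 for Itgb6.

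**Figure D2:**
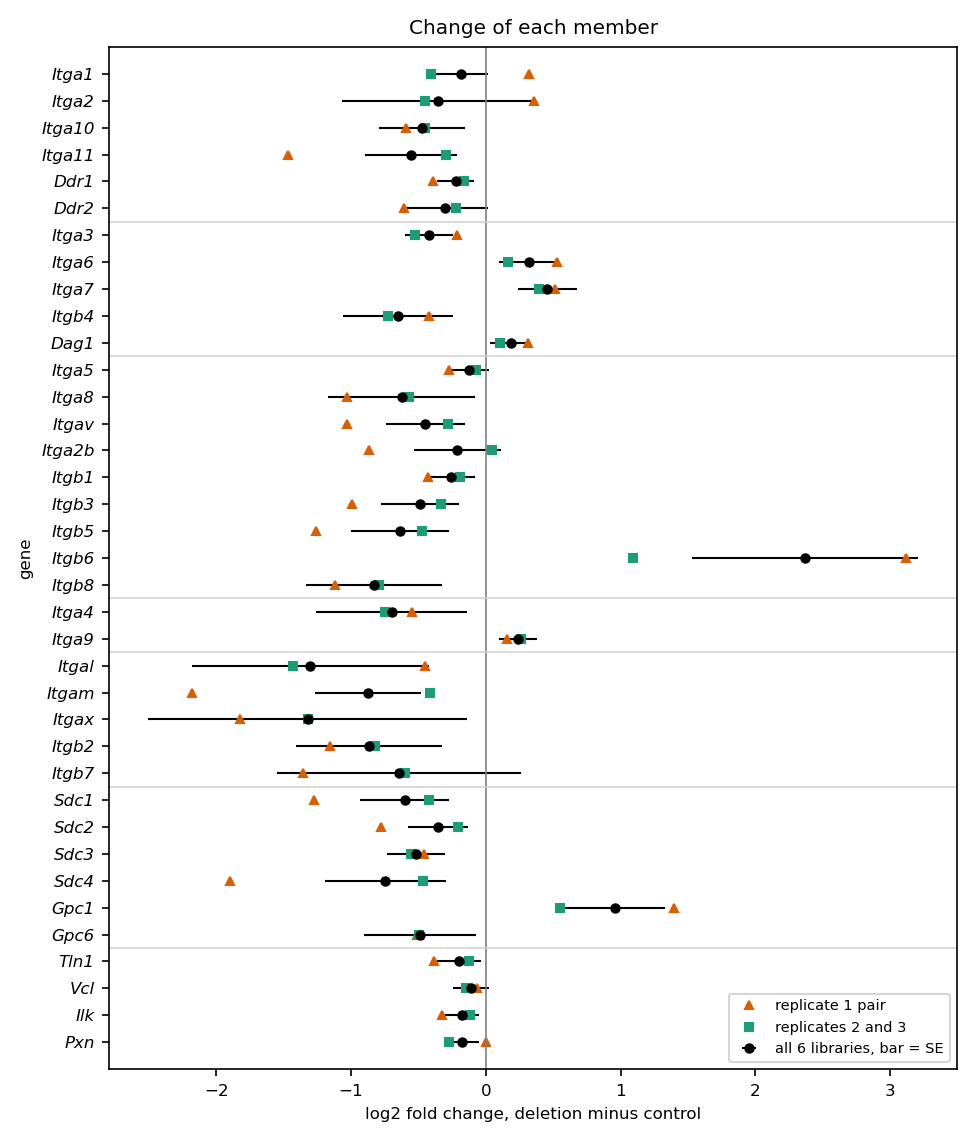
Log2 fold change, deletion minus control (horizontal axis), of each of the 37 genes (vertical axis); black points with SE bars use all 6 libraries, orange triangles the replicate 1 pair and green squares replicates 2 and 3. Of the 37 points 31 lie left of 0, and the triangles of Itgam, Sdc4 and Itga11 lie further left than the squares.

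Per kilobase of transcript, the most abundant of the 37 genes was Itgb1, at 245 ± 18.3 CPM per kb in controls (SD, n = 3). It encodes the beta chain shared by all collagen- and most laminin-binding integrins. Itgb5, which pairs with alpha v to bind vitronectin, followed at 166 ± 33.3 CPM per kb and Dag1, the laminin receptor dystroglycan, at 73.4 ± 1.33 CPM per kb. Each of these 3 stood above the next in every control library. Ilk, at 63.0 ± 4.78 CPM per kb, and Sdc2, at 53.4 ± 5.13 CPM per kb, came next. Ilk was above Sdc2 within each control library, but their ranges met. The lowest control value of Ilk was 59.08 CPM per kb and the highest of Sdc2 was 59.16 CPM per kb. Gpc1 ranked 10 in controls at 31.9 ± 5.53 CPM per kb and 4 in deletion scars at 61.8 ± 33.3 CPM per kb. The lowest level in controls was that of Itgb6, at 0.493 ± 0.167 CPM per kb.

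The collagen receptors were all on the lower side. All 6 had negative log2 fold changes, with a median of -0.33. The deletion libraries lay below the controls for 2 of them, against 8.59% of all genes. Itga11 (chr9:62677855-62783979, mm10) encodes the alpha 11 chain, a receptor for fibrillar collagens on fibroblasts. It was read at 53.0, 62.2 and 54.2 CPM in control replicates 1 to 3 and at 19.1, 46.1 and 49.9 CPM in deletion replicates 1 to 3. The groups did not overlap, and deletion replicate 1 lay far below the other 5 libraries. The log2 fold change was -0.55 ± 0.34 (SE; edgeR adjusted p = 0.594), with -1.47 between the replicate 1 libraries, -0.29 in replicates 2 and 3, and -0.24 without deletion replicate 1. Ddr1, a collagen-activated receptor kinase, was at 37.7, 40.3 and 34.4 CPM in the control libraries, against 28.7, 34.1 and 33.2 CPM in the deletion libraries, again without overlap but by a small margin. Ddr2, the related kinase of mesenchymal cells, stood at 143, 246 and 153 CPM in the control libraries, against 93.6, 169 and 177 CPM in the deletion libraries, and its groups overlapped. Itga1, a further collagen-binding alpha chain, ranged from 39.8 to 66.1 CPM in controls and 45.0 to 49.7 CPM in deletion scars (-0.19 ± 0.20). Its sign differed between the sets of replicates, at 0.32 between the replicate 1 libraries and -0.41 in replicates 2 and 3, and it was at -0.023 without control replicate 2. Itga10, a chain of cartilage and fibroblasts, ranged from 4.79 to 7.85 CPM in controls and 3.17 to 6.28 CPM in deletion scars (-0.47 ± 0.32). Itga2, of platelets and epithelium, was at 1.56 to 9.72 CPM in the control libraries, against 2.01 to 8.37 CPM in the deletion libraries, and its sign turned when control replicate 2 or deletion replicate 1 was left out. The median of the 6 was -0.19 without deletion replicate 1 and -0.10 without control replicate 2. The fibroblast markers were lowest in deletion replicate 1, as were Itga11, Itgb5 and Sdc4; the part of fibroblast number in these values was not tested.

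The promoters of 4 genes, chosen after their values were seen, are shown because deletion replicate 1 was far from the other libraries for each: Itgb6 was highest there, and Itga11, Sdc4 and Itgb5 were lowest. Each is the 250 bases before the transcription start, 5′ to 3′ on the gene's strand, from RefSeq (GRCm38.p6); Gpc1 has no entry in the table. Letters in capitals are GGGCGG, the core of a GC box, or its complement CCGCCC.
Itgb6: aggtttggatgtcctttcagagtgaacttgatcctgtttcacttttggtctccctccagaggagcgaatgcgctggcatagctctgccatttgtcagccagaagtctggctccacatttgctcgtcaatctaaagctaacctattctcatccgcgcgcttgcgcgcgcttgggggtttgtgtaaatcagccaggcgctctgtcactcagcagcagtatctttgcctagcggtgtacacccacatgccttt
Itga11: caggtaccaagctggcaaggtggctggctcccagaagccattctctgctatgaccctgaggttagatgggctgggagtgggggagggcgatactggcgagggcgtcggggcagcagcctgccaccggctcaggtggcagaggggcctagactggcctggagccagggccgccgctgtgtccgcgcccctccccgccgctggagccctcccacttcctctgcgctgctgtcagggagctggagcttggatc
Sdc4: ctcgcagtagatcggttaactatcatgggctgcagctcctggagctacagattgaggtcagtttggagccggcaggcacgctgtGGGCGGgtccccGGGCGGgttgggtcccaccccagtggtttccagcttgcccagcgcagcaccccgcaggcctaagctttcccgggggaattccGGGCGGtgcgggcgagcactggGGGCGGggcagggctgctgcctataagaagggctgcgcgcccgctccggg
Itgb5: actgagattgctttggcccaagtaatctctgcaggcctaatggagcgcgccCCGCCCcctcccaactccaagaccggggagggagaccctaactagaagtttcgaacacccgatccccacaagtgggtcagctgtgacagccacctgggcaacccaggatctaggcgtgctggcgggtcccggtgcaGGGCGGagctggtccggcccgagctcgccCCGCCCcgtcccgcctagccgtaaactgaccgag
The Itgb6 sequence lies at chr2:60722604-60722853 on the minus strand, that of Itga11 at chr9:62677605-62677854 on the plus strand, that of Sdc4 at chr2:164443189-164443438 on the minus strand and that of Itgb5 at chr16:33829415-33829664 on the plus strand. Sdc4 holds 4 matches and Itgb5 holds 3, whereas Itgb6 and Itga11 hold none. None of the 4 holds ACAAT or ACAAAG, cores that SOX proteins bind, or GGAATG, the core bound by TEAD factors, on either strand; such a match, or its lack, is a description of these letters only. Over the 27 of 37 genes with an entry, GGGCGG was found in 13 promoters, or 48.1%, against 32.9% of 27025 genes. ACAAT was found in 5, or 18.5%, against 28.3%, ACAAAG in 1, or 3.7%, against 16.5%, and GGAATG in 3, or 11.1%, against 12.6%. The 27025 genes include ones absent from the deposited table, and the first promoter listed was used for each. For the 27 the promoter nearest the deposited start was used, so these shares do not compare like with like. Of the 4 printed, Itgb6 had 52% G and C, equal to the median of all promoters, and the other 3 had 65.2% to 68.4%.

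Laminin receptors were mixed in direction. Of 5 genes, 3 had positive and 2 had negative log2 fold changes, none passed the test, and the median was 0.19, or 0.08 without deletion replicate 1. Itga7 (chr10:128933813-128958284), whose alpha 7 chain is the muscle laminin receptor, was at 93.8, 69.5 and 68.1 CPM in the control libraries, against 134, 95.1 and 88.1 CPM in the deletion libraries. Control replicate 1 overlapped the deletion libraries, and deletion replicate 1 was the highest. The log2 fold change was 0.46 ± 0.22 (SE; edgeR adjusted p = 0.564), and 0.24 without deletion replicate 1. Dag1, encoding dystroglycan, was at 401, 414 and 402 CPM in the control libraries, against 499, 446 and 439.8 CPM in the deletion libraries, with no overlap and a log2 fold change of 0.19 ± 0.15. The cardiomyocyte markers were highest in deletion replicate 1, as were both these genes; the part of such cells in the values was not tested. Itga6, the laminin receptor chain of epithelium and endothelium, was at 81.4, 69.8 and 65.3 CPM in the control libraries, against 117, 85.1 and 68.3 CPM in the deletion libraries, while the 10 endothelial markers, led by Cdh5 and Pecam1, summed to 851 to 1034 CPM in controls and to 911 to 1640 CPM in deletion scars, highest in replicate 1. Itga3, another laminin-binding alpha chain, was lower in each deletion library, at 14.8, 19.8 and 16.3 CPM over the controls and 12.8, 11.2 and 14.1 CPM over the deletion scars, a log2 fold change of -0.42 ± 0.18. Itgb4, the beta chain of hemidesmosomes, ranged from 8.51 to 23.1 CPM in controls and 6.33 to 11.8 CPM in deletion scars (-0.65 ± 0.41, and -0.17 without control replicate 2).

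Among the RGD-binding and alpha v integrins, 8 of 9 genes had negative log2 fold changes, and none passed the test. Only Itgb1 was wholly lower, against 8.59% of all genes, and only Itgb6 wholly higher, against 8.87% of all genes. The median was -0.45. It was -0.99 between the replicate 1 libraries and -0.28 in replicates 2 and 3, and -0.21 without deletion replicate 1. Itgb5 (chr16:33829665-33949338) was at 435, 649.5 and 528 CPM in the control libraries, against 182, 391 and 465 CPM in the deletion libraries. Only deletion replicate 3 reached the control range. The log2 fold change was -0.63 ± 0.37 (SE; edgeR adjusted p = 0.571), with -0.34 without deletion replicate 1. Itgb1 (chr8:128685654-128733579) was at 1067, 1071 and 936 CPM in the control libraries, against 794, 866 and 912 CPM in the deletion libraries, a lower value in all 3 deletion libraries but by little for replicate 3, with a log2 fold change of -0.26 ± 0.18. Itgav, the alpha v chain that activates latent transforming growth factor beta with several of these beta chains, ranged from 80.1 to 98.9 CPM in controls and 39.2 to 83.3 CPM in deletion scars (-0.45 ± 0.29, and -0.19 without deletion replicate 1). Itgb3, a vitronectin receptor chain of platelets and osteoclasts, ranged from 19.4 to 24.9 CPM in controls and 9.71 to 21.1 CPM in deletion scars (-0.49 ± 0.29). Itgb8, another partner of alpha v, ranged from 2.11 to 4.24 CPM in controls and up to 3.26 CPM in deletion scars (-0.83 ± 0.50). The groups overlapped for all 3. Itga8, of mesenchymal cells, was at 17.1 to 44.7 CPM in the control libraries, against 8.34 to 31.0 CPM in the deletion libraries, at -0.62 ± 0.55, or -0.25 without deletion replicate 1. Itga5, the fibronectin receptor chain, had 112, 113 and 113 CPM in the control libraries, against 92.1, 97.7 and 120.2 CPM in the deletion libraries, a difference of -0.13 ± 0.15. Itga2b, of platelets, was at 2.42 to 4.35 CPM in the control libraries, against 2.27 to 3.82 CPM in the deletion libraries; of 8 platelet markers 4 were listed, led by Pf4 and Gp1bb, and they summed to 20.7 to 39.9 CPM in the control libraries, against 26.0 to 31.0 CPM in the deletion libraries.

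Itgb6 (chr2:60598292-60722603), whose beta 6 chain pairs with alpha v in epithelium, was higher in deletion scars, chiefly in 1 library. It was at 3.34, 2.01 and 1.85 CPM in the control libraries, against 29.4, 4.37 and 4.02 CPM in the deletion libraries. The deletion libraries all lay above the controls, and replicate 1 lay far above the other 2. The log2 fold change was 2.37 ± 0.84 (SE; edgeR adjusted p = 0.564), and 0.81 without deletion replicate 1; it was 3.12 between the replicate 1 libraries and 1.09 in replicates 2 and 3. The 6 listed of 8 epithelial markers, led by Krt18 and Krt19, were lowest in deletion replicate 1, at a sum of 2.27 CPM. They were low in all libraries, at 8.25 to 24.9 CPM in controls and 5.55 and 20.1 CPM in the other deletion libraries. The cardiomyocyte and endothelial markers were highest in deletion replicate 1, at sums of 166440 and 1640 CPM. The part of any of these cells in the Itgb6 values was not tested.

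**Figure D3:**
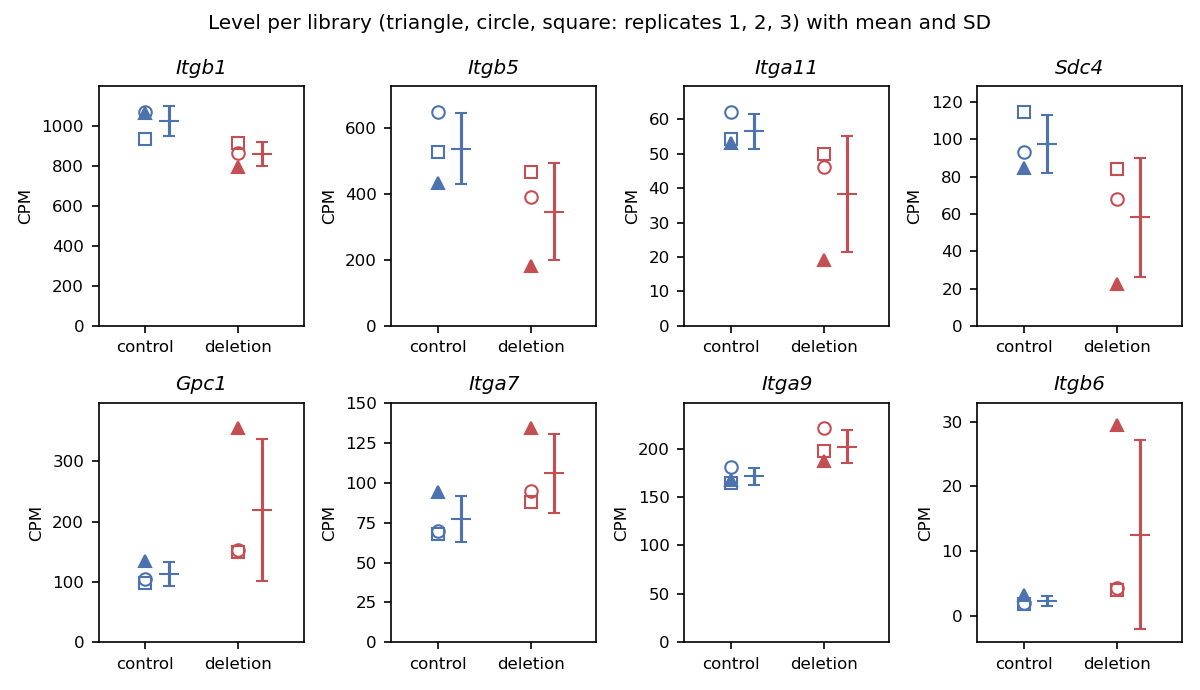
CPM (vertical axis, linear, starting at 0 except for Itgb6) of 8 genes in the control and deletion libraries; triangles, circles and squares are replicates 1, 2 and 3, and the bar beside each group is its mean and SD over 3 libraries. The deletion triangle is the lowest point for Itgb1, Itgb5, Itga11 and Sdc4 and the highest for Gpc1, Itga7 and Itgb6.

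As a share of the beta chains' summed level per kilobase, Itgb1 held 62.9%, 53.3% and 52.2% in controls and 73.2%, 59.8% and 56.7% in deletion scars. Itgb5 held 33.1%, 41.7% and 38.0% in controls and 21.6%, 34.8% and 37.3% in deletion scars. Both shares overlapped between the groups. Itgb6 held 0.0857% to 0.169% in controls and 0.214% to 2.32% in deletion scars, without overlap.

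Of the alpha 4 and alpha 9 chains, which bind the counter-receptor VCAM1 and several matricellular proteins, Itga9 had a positive and Itga4 a negative log2 fold change. Itga9 was at 168, 181 and 165 CPM in the control libraries, against 188, 221 and 198 CPM in the deletion libraries; the groups were apart, with a log2 fold change of 0.24 ± 0.14. Itga4, an integrin chain of lymphocytes and monocytes, was at 15.7, 28.9 and 61.3 CPM in the control libraries, against 10.8, 23.4 and 31.0 CPM in the deletion libraries, and control replicate 3 stood alone at the top. The groups overlapped, and the log2 fold change was -0.70 ± 0.56, or -0.038 without control replicate 3 and -0.39 without deletion replicate 1.

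The 5 leukocyte integrins had negative log2 fold changes, with a median of -0.87. Itgam, the alpha M chain of macrophages and neutrophils, was at 81.9, 50.9 and 72.5 CPM in the control libraries, against 18.0, 41.4 and 52.3 CPM in the deletion libraries. Its groups overlapped by 1 library and the log2 fold change was -0.87 ± 0.39 (SE; edgeR adjusted p = 0.564), with -2.18 between the replicate 1 libraries and -0.41 in replicates 2 and 3. Itgb2, the shared beta chain of these receptors, was at 26.3, 35.5 and 80.6 CPM in the control libraries, against 11.8, 29.9 and 36.4 CPM in the deletion libraries. The T-cell and myeloid chains Itgal and Itgax were highest in control replicate 3, at 30.4 and 48.3 CPM, against at most 8.05 and 13.8 CPM in the other 5 libraries. Itgb7, of intestinal and mucosal lymphocytes, was also highest there, at 17.0 CPM against at most 7.53 CPM. Without control replicate 3 the median of these 5 was 0.25, with Itgal, Itgax and Itgb7 then positive.

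The leukocyte integrins and the leukocyte markers were lowest and highest in the same libraries. The integrins' summed level was 117, 104 and 249 CPM in the control libraries, against 33.8, 92.3 and 118 CPM in the deletion libraries, while Ptprc, the pan-leukocyte marker CD45, was at 46.1, 71.1 and 182 CPM in the control libraries, against 19.3, 77.9 and 88.5 CPM in the deletion libraries. Per 100 CPM of leukocyte markers, the integrins summed to 27.2, 18.8 and 22.7 CPM in controls and to 14.1, 15.7 and 22.3 CPM in deletion scars, which overlap. The ratio of Itgb2 to Ptprc was 0.569, 0.499 and 0.442 in controls and 0.611, 0.383 and 0.412 in deletion scars, again overlapping. The part of leukocyte number in these levels was not tested.

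**Figure D4:**
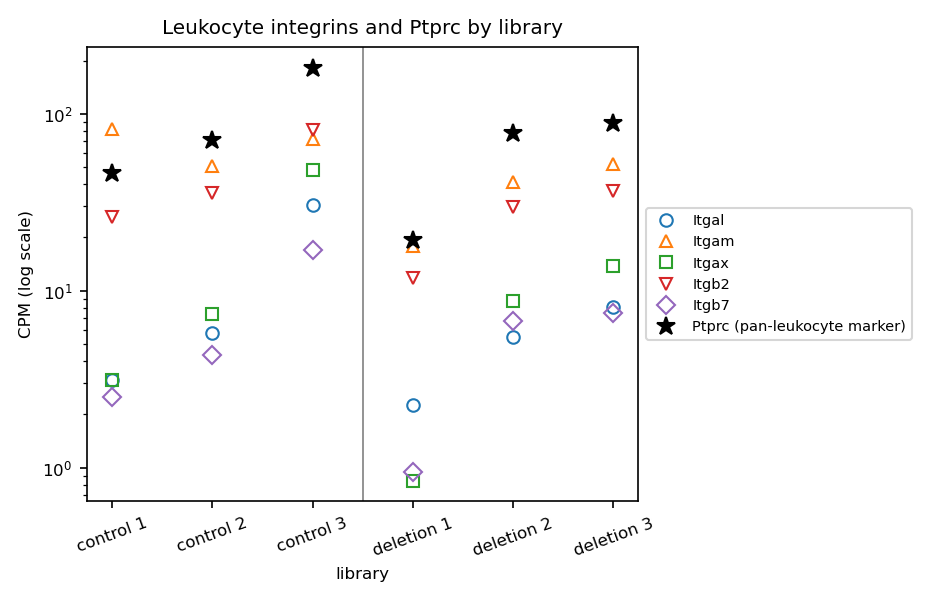
CPM on a log axis (vertical) of the 5 leukocyte integrin genes and of Ptprc in each of the 6 libraries (horizontal axis). Control replicate 3 is highest for all but Itgam, and deletion replicate 1 is lowest for all 6.

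Among the syndecans and glypicans, 5 of 6 genes had negative log2 fold changes and none passed the adjusted test. Only Sdc3 and Sdc4 were wholly lower, against 8.59% of all genes, and only Gpc1 wholly higher, against 8.87% of all genes. The median was -0.50, or -0.26 without deletion replicate 1. Sdc4 (chr2:164424247-164443188), the syndecan of focal adhesions, was at 84.7, 93.2 and 115 CPM in the control libraries, against 22.7, 67.9 and 84.0 CPM in the deletion libraries. The groups did not overlap, though deletion replicate 3 and control replicate 1 nearly met. The log2 fold change was -0.74 ± 0.45 (SE; edgeR adjusted p = 0.582), with -1.90 between the replicate 1 libraries and -0.47 in replicates 2 and 3. Sdc3, a syndecan of nerve and muscle, was at 166, 209.7 and 256 CPM in the control libraries, against 121, 166 and 156 CPM in the deletion libraries. Every deletion library was below the lowest control, narrowly so for replicate 2. Its log2 fold change was -0.52 ± 0.21, with -0.46 between the replicate 1 libraries and -0.55 in replicates 2 and 3. Sdc1, the syndecan of epithelium and plasma cells, ranged from 38.4 to 51.4 CPM in controls and 15.8 to 38.6 CPM in deletion scars (-0.60 ± 0.33). Sdc2, of mesenchymal cells, ranged from 163 to 196 CPM in controls and 99.4 to 169 CPM in deletion scars (-0.35 ± 0.22). Gpc6, a glypican of mesenchymal tissues, ranged from 65.3 to 146 CPM in controls and 45.9 to 107 CPM in deletion scars (-0.49 ± 0.42). These 3 overlapped between the groups.

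Gpc1 (chr1:92831686-92860196), a glypican that anchors heparan sulphate to the membrane through a lipid, was on the higher side. It was at 135, 106 and 97.7 CPM in the control libraries, against 355, 152 and 149 CPM in the deletion libraries. Every deletion library lay above every control, and replicate 1 of each group was the highest of its group. The log2 fold change was 0.96 ± 0.37 (SE; edgeR adjusted p = 0.564), with 1.39 between the replicate 1 libraries, 0.55 in replicates 2 and 3, and 0.41 without deletion replicate 1. The summed cardiomyocyte markers were likewise highest in replicate 1 of each group, at 85173 CPM in the control and 166440 CPM in the deletion library. Their part in the Gpc1 values was not tested. Exonic bases of Gpc1 overlap those of Ankmy1 on the other strand. Since the use of strand in counting is not given, reads of the 2 cannot be told apart.

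The 4 genes for cytoplasmic proteins differed little between the groups, with negative log2 fold changes and a median of -0.18. Tln1, encoding talin, was at 350.2, 363 and 357 CPM in the control libraries, against 268, 323 and 343 CPM in the deletion libraries. Vcl, encoding vinculin, was at 233, 239.5 and 247 CPM in the control libraries, against 222, 228 and 217 CPM in the deletion libraries. Ilk, encoding the integrin-linked pseudokinase, ranged from 103 to 119 CPM in controls and 94.3 to 101 CPM in deletion scars. Tln1, Vcl and Ilk were wholly lower in deletion scars, against 8.59% of all genes. Their log2 fold changes were -0.20 ± 0.16, -0.11 ± 0.13 and -0.18 ± 0.13. Pxn, encoding paxillin, was at 43.9, 54.4 and 49.0 CPM in the control libraries, against 43.9, 44.5 and 41.8 CPM in the deletion libraries.

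Related genes, in lists chosen with earlier results known, are given for comparison. edgeR called none of their genes, with a lowest adjusted p of 0.564, and DESeq2 called 1, Gpc3. Among 39 tested adhesion adaptors and kinases, 16 had positive and 23 negative log2 fold changes with a median of -0.10. Tns1 and Flna, actin-linking proteins, had the highest CPM of the list. At an unadjusted p below 0.05 in edgeR, 1 gene was higher, against 5.3% of all genes, and 3 were lower, against 3.04%. Wholly higher in deletion scars were 3, against 8.87% of all genes, and wholly lower 7, against 8.59%. Tgfb1i1 and Csrp1, LIM proteins of muscle and adhesions, had log2 fold changes of -0.45 ± 0.17 and -0.57 ± 0.23, and Lims1, a partner of ILK, had 0.37 ± 0.14. Of 18 genes of the dystroglycan complex, 14 were positive with a median of 0.29, or 0.14 without deletion replicate 1. In deletion scars 7 were wholly higher, against 8.87% of all genes, and 2 were higher at an unadjusted p below 0.05, against 5.3% of all genes. Sspn and Utrn had the highest CPM. Sgca, a sarcoglycan of muscle, was at 42.1, 28.1 and 34.3 CPM in the control libraries, against 89.9, 44.3 and 43.7 CPM in the deletion libraries. The groups did not overlap, and deletion replicate 1 was the highest; the log2 fold change was 0.77 ± 0.32, or 0.33 without that library. Dtna, encoding dystrobrevin alpha, had 0.45 ± 0.17. The cardiomyocyte markers were highest in deletion replicate 1 but overlapped between the groups, with 81210 CPM in deletion replicate 3 and 85173 CPM in control replicate 1, and their part was not tested.

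Of 28 genes for integrin ligands, 23 had negative log2 fold changes with a median of -0.48, or -0.26 without deletion replicate 1. In deletion scars 6 were wholly lower, against 8.59% of all genes. The fibroblast markers, at 6286 CPM in deletion replicate 1 and at least 12343 CPM in the other libraries, were lowest in the same library, and their part was not tested. Col1a1, Col1a2 and Postn belong to both lists, so the ligands and these markers are partly the same genes. At an unadjusted p below 0.05, 7 ligand genes were lower, against 3.04% of all genes, and 0 higher in edgeR. Col3a1 and Col1a2 had the highest CPM. Spp1, encoding osteopontin, was at 101, 56.3 and 49.2 CPM in the control libraries, against 7.23, 15.4 and 32.7 CPM in the deletion libraries, a log2 fold change of -1.89 ± 0.56. Tnc and Ctgf, which encode tenascin C and a matricellular growth factor partner, had -0.70 ± 0.24 and -0.91 ± 0.33. The list of other matrix and proteoglycan receptors held 13 tested genes, of which 10 were negative, with a median of -0.24. At an unadjusted p below 0.05 in edgeR, 1 was lower, against 3.04% of all genes, and 0 higher. Wholly lower in deletion scars were 3, against 8.59% of all genes, and 0 were wholly higher. Itgbl1 and Cd93 had the highest CPM of the list. Gpc3, a glypican, was at 38.9, 51.4 and 47.5 CPM in the control libraries, against 11.5, 16.1 and 22.5 CPM in the deletion libraries, clear of overlap, with a log2 fold change of -1.45 ± 0.26 (SE; edgeR adjusted p = 0.564). DESeq2 called it, at an adjusted p of 0.00254. It lay at -1.75 and -1.37 in both sets of replicates. Cspg4 and Lyve1, markers of pericytes and lymphatic vessels, had -0.28 ± 0.12 and -0.75 ± 0.37.

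**Figure D5:**
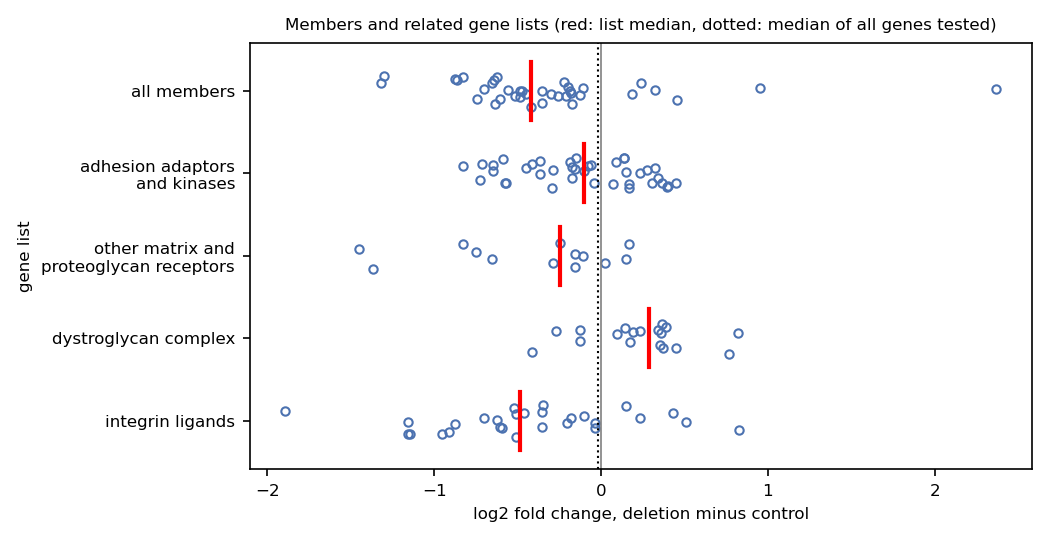
Log2 fold change, deletion minus control (horizontal axis), of the 37 genes and of the genes in 4 related lists (vertical axis); each circle is a gene, the red bar is the median of the list, and the dotted line is the median of all genes tested. Medians are -0.42 for the 37 genes, -0.48 for ligands and 0.29 for the dystroglycan complex.

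The authors' deposited table gives a probability of differential expression above 0.95 to 79% of the 14798 genes and to all 37 genes described here. In the authors' deposited table the log2 fold change was 1.78 for Itgb6, 0.83 for Gpc1, -0.74 for Itgb5, -1.48 for Itgax and -1.16 for Itgal.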

How the data were processed

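RNA-seq of the scar was analysed from the deposited table of raw counts per gene for 3 control and 3 deletion libraries, per the file headers. Trim Galore, STAR, deepTools and the build mm10 come from the submitters' processing notes, which give no role or version here; how reads were counted, and whether by strand, is not given in the sources used here. That deposited table holds signal values (TMM, by the authors), the authors' log2 fold change, the log2 of the ratio of their group means, and a NOISeqBIO score, deposited as a probability. The table has 14798 genes, with a lowest mean count of 7. The series text speaks of polyA RNA and the protocol of total RNA.

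Counts were tested with edgeR 4.0.16 in R 4.3.3 (TMM scaling, filterByExpr, robust quasi-likelihood F test, prior count of 2, Benjamini-Hochberg adjustment over 14771 genes); a gene counted as called at an adjusted p below 0.05. SE is the log2 fold change divided by the square root of F. CPM used TMM-scaled totals, and levels between genes were divided by the deposited transcript length. An exact permutation test of 3 against 3 libraries cannot go below p = 0.1. The script was tested on simulated data. The genes and lists were chosen with earlier results of these data known. All 37 genes are named, as are the 2 most abundant genes of each related or marker list and, of related lists, the 3 with the smallest p; other names (Xist, Ddx3y, Ptprc) were chosen for checks. Of the genes this rule names, 2 are not reported here. Of smooth muscle and pericyte markers 8 of 8 were listed, led by Rgs5 and Acta2, summing to 1863 to 2048 CPM in the control libraries, against 1830 to 2167 CPM in the deletion libraries. Of Schwann cell markers 6 of 8 were listed, summing to 28.2 to 34.1 CPM in the control libraries, against 22.4 to 33.5 CPM in the deletion libraries. All 9 skeletal muscle markers, led by Ckm and Acta1, summed to 284 to 1166 CPM in the control libraries, against 645 to 4385 CPM in the deletion libraries. That sum is mostly Ckm and Acta1: of the 9 genes 6 had negative log2 fold changes, the median was -0.65, and 3 were lower and 1 higher at an unadjusted p below 0.05.

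Exonic bases of 15 of the 37 genes overlap another gene in GENCODE vM21, 3 on the same strand (Itga1, Itga10, Itgam) and 12 on the other (Ddr1, Ddr2, Itga7, Itgb4, Itga8, Itgav, Itga4, Sdc3, Gpc1, Tln1, Vcl, Ilk), so their values are uncertain. Alternatives tried were DESeq2 1.42.0, other scalings and filters, a term for replicate 1, a replicate block and each library left out; leaving out control replicate 3 with deletion replicate 1 was chosen after seeing the data.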

Additional observations from a re-analysis of the deposited data

How the results depend on the processing

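Over 16 alternative fits, the sign of the log2 fold change held in 580 of 592 pairs of a gene and a setting, 30 of the 37 genes kept their sign in all of them, and 0 pairs passed the threshold. The replicate 1 pair, which allows no test, is not among these: there 19 of the 37 genes moved by more than the spread between replicates, and the sign turned for Itga1 (0.32), Itga2 (0.35) and Pxn (0.000292). The sign turned for Itga2 without control replicate 2 (0.073), without deletion replicate 1 (0.00263) and without control replicate 3 and deletion replicate 1 (0.18), and over the replicates left out 1 at a time it ran from -0.94 to 0.073. It turned for Itga2b in replicates 2 and 3 alone (0.047). Without control replicate 3, Itgal reached 0.25, Itgax 0.56 and Itgb7 0.57; leaving out deletion replicate 1 as well gave 0.58, 1.07 and 1.02, as well as 0.27 for Itga4 and 0.091 for Itgb2. With 1 library left out at a time, Itgal ran from -1.77 to 0.25, Itgax from -2.01 to 0.56 and Itgb7 from -1.06 to 0.57.

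DESeq2 called 51 genes and the fit with a term for replicate 1 called 1, against 0 in edgeR; at an unadjusted p below 0.05 edgeR had 1232 genes. At that level DESeq2 gave 1790 genes, the replicate block gave 2560, the term for replicate 1 gave 3348, and replicates 2 and 3 alone gave 2342. Leaving out control replicate 3 with deletion replicate 1 gave 973. Leaving out 1 library gave 452 (control replicate 2) to 1726. Of the 37 genes, 3 were at that level in edgeR, 6 in DESeq2 (lowest adjusted p 0.163), 13 with the replicate block, 15 with the term for replicate 1, 14 in replicates 2 and 3 alone and 1 without control replicate 3 and deletion replicate 1; leaving out 1 library gave 0 (control replicate 2 or 3) to 5 (deletion replicate 3). In their deviations from the group means, libraries numbered 1, 2 and 3 correlated with their namesakes at 0.48, 0.0131 and 0.18. The replicate 1 libraries correlated at -0.40 to -0.21 with libraries of other numbers in the other group. Deviations within a group cancel out, so a positive correlation with 1 library forces a negative one with another. These correlations are therefore not independent of each other. Numbers 2 and 3 did not pair the libraries: control 3 with deletion 2 was at 0.39, and control 2 with deletion 3 at 0.31. Of the 37 genes, 13 had groups that did not overlap, 7 with library totals and up to 24 without control replicate 1. With all 6 libraries, 8.87% of all genes were wholly higher and 8.59% wholly lower. With 1 library left out, the groups of any gene separate more easily, and shares of all genes are not given for these settings. Library totals shifted the median of all genes by -0.13, and no sign of the 37 genes turned with it.

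Group medians moved by more than the spread in few settings: the RGD and alpha v group was at -0.99 between the replicate 1 libraries, the alpha 4 and alpha 9 group at 0.27 without control replicate 3 and deletion replicate 1, and the cytoplasmic group at -0.31 with library totals, -0.14 in replicates 2 and 3 and -0.15 without control replicate 3 and deletion replicate 1, with -0.19 to -0.15 when 1 library was left out. The leukocyte integrin median changed sign, from -0.87 to 0.25 without control replicate 3 and to 0.58 without control replicate 3 and deletion replicate 1. The tests had 4 residual degrees of freedom.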
